A study of Mus musculus with 12 samples.

Results

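The forkhead genes encode transcription factors that share a winged-helix DNA-binding domain. In the tongue of the mouse embryo they were taken as all genes whose symbol is Fox followed by a letter and a number, each read by its brightest probe set. The symbol rule found 38 of 18193 genes. Of these, 37 encode forkhead proteins in 17 lettered subfamilies, and the remaining gene, Foxl2os, is an RNA transcribed opposite to Foxl2 and is described apart.

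Tongues of C57BL/6J embryos at embryonic day 13.5 were measured on Affymetrix mouse expression arrays, with 1 array per sample, 6 mutant and 6 control. Mutant embryos were Myf5-Cre;Smad4flox/flox, with both copies of Smad4 floxed. Control embryos were Myf5-Cre;Smad4flox/+, so they carried the same Cre and could lose 1 copy. Smad4 is the shared mediator of TGF-β and BMP signals, and Cre made under the control of Myf5 acts in cells that have expressed this muscle determination gene, so cells outside that lineage keep Smad4. The labels call the 6 samples of a group biological replicates and give no litter, sex or number of tongues per sample, so p-values measure the spread between these samples.

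Forkhead proteins act in different tissues by subfamily. In mesenchyme derived from neural crest, FOXF and FOXC proteins act downstream of Hedgehog signals from the epithelium, and loss of Foxf2 or Foxc2 in mice gives a cleft palate. FOXA proteins open chromatin in endodermal epithelium, FOXO proteins are held out of the nucleus by insulin and AKT signals and switch on growth arrest and protein breakdown genes in muscle, and FOXP proteins are repressors that pair with each other. FOXH1 and FOXO proteins are also known to bind DNA together with complexes that hold SMAD4.

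Values are log2 signals from the authors' RMA summaries. Changes are mutant minus control in log2 units with their standard error (SE), and a gene passed when its adjusted p from limma over all 18193 genes was under 0.05. Signals of different probe sets are not comparable as amounts of RNA, so levels are given only between samples for 1 gene. A probe set is called dim where its mean over all arrays was under 6.13, the median of all probe sets. Whole tongue RNA was measured, so fewer cells of a type and less RNA per cell cannot be told apart. The brightest Smad4 probe set read 11.58 to 12.30 on mutant arrays, with a median of 12.25, and 12.16 to 12.35 on control arrays, with a median of 12.30 (change −0.15, adjusted p = 0.427). Mutant 1 alone was low, and the next mutant was at 12.18. The sources used here do not place the probes relative to the deleted part, so they do not check the genotype. The first principal component held 35% of the variance, with mutant 1 at 24.7 and mutant 2 at 20.3 and the other mutants between 2.90 and 14.8. Control 3, mutant 4 and mutant 6 had signal from both Xist and Y-linked genes (Xist at 12.4, 8.73 and 7.88, and the Y-linked mean at 5.31, 8.39 and 8.27), and mutant 6 and control 6 had the lowest 18S control signal, at 13.0 and 13.5 against 14.0 to 14.3 elsewhere. For each forkhead gene whose call ends without these arrays, the value without them is given. For pairs of paralogs the adjusted p without them is given as a range over the pairs.

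Several forkhead genes known from mesenchyme were higher in the mutant tongue and a pair of FOXO genes was lower. Of the 37 forkhead genes, 7 rose: Foxf1, Foxc1, Foxc2, Foxd1, Foxd2, Foxd4 and Foxp2. Foxo1 and Foxo4 fell, and 28 did not pass. Over all genes 11.1% passed, 6.3% higher and 4.8% lower. The median change of the 37 was 0.02, against 0.01 for all genes, and 19 lay above 0 and 18 below. By subfamily, both FOXC genes, 3 of 4 FOXD genes and 1 of 2 FOXF genes rose, and 2 of 3 FOXO genes fell. The 3 FOXA, 3 FOXJ, 2 FOXK and 4 FOXN genes held no passing member. Of the 27 genes that were not dim, 8 passed, where 14.8% of all such genes did, and of the 10 dim ones Foxd4 alone passed. Without mutants 1 and 2, 3 of the 9 calls remained (Foxf1, Foxc2 and Foxo4), and without control 3, mutant 4 and mutant 6 also 3 (Foxf1, Foxc1 and Foxo4), with fewer samples tested.

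**Figure D1:**
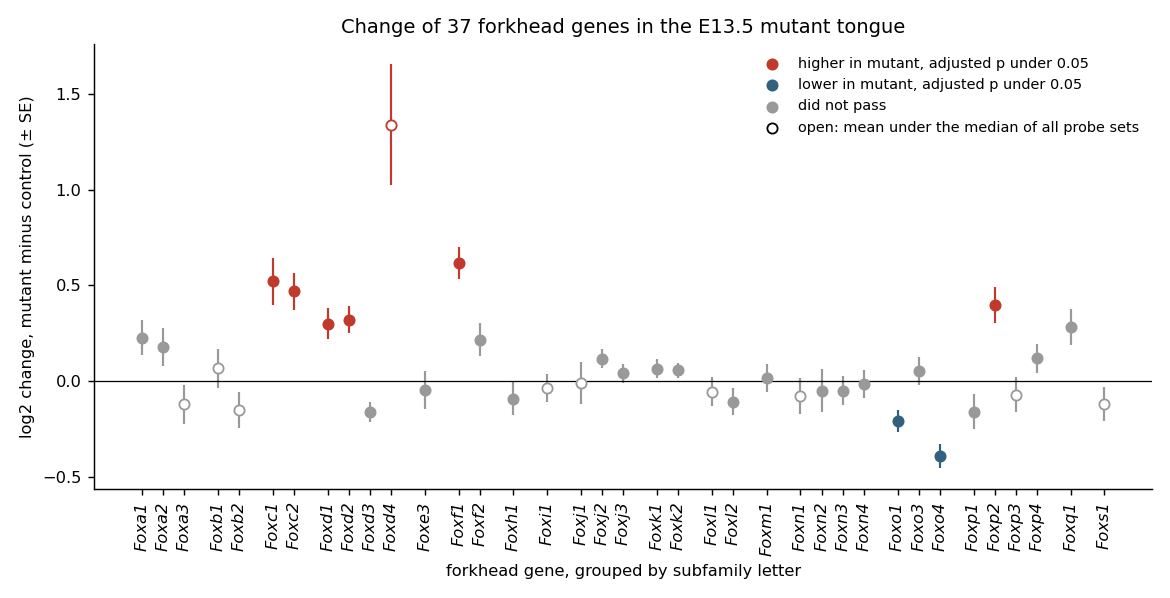
Log2 change of each of the 37 forkhead genes, mutant minus control, by subfamily, with bars for ± SE (n = 6 arrays in each group). Filled points are probe sets at or above the median signal and open points are dim. Red marks the 7 genes that rose, from 0.30 for Foxd1 to 1.34 for Foxd4, and blue marks Foxo1 (−0.21) and Foxo4 (−0.39).

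Promoters of genes that passed are shown because these genes carry the result. RefSeq windows of build GRCm38.p6 were matched for 24 of the 37 genes, among them 5 of the 9 that passed. Each line gives the 250 bases before the annotated start, 5′ to 3′ on the gene's strand, and capitals mark the GC box (GGGCGG on either strand), the site of SP1-type factors:
Foxc1 (chr13:31806396-31806645, plus strand): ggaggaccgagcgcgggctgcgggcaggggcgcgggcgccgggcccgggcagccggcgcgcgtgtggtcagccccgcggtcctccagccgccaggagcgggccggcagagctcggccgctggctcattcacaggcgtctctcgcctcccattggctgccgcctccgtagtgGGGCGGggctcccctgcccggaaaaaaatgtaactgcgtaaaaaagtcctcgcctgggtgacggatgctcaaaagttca
Foxd1 (chr13:98353995-98354244, plus strand): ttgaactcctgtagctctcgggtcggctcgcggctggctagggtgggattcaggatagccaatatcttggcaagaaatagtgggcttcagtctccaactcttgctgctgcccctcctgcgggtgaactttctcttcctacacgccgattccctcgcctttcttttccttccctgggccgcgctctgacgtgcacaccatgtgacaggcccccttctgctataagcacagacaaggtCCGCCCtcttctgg
Foxd2 (chr4:114908899-114909148, minus strand): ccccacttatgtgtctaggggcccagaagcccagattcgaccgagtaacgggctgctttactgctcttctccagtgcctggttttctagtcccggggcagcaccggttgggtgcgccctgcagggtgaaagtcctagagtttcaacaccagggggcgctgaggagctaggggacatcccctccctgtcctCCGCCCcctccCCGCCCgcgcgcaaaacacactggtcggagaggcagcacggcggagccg
Foxd4 (chr19:24901017-24901266, minus strand): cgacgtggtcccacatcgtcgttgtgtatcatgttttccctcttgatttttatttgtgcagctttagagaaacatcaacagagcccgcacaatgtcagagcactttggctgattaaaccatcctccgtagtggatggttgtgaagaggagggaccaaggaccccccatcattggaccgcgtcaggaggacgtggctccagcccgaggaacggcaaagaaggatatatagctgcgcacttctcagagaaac
Foxo1 (chr3:52268087-52268336, plus strand): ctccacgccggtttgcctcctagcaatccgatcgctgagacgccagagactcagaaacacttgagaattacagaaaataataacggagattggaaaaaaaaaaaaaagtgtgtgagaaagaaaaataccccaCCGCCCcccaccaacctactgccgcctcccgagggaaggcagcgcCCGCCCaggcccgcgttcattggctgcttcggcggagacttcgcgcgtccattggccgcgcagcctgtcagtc
Foxo1 and Foxd2 held 2 GC boxes each, Foxc1 and Foxd1 held 1 each and Foxd4 held none. A GC box was present in 69.0% of the 29 forkhead windows and in 32.7% of all 32851 windows of the table. The forkhead windows were also richer in G and C, with a median of 62.8%, against 52.4% for all windows, and 65.5% of them, against 34%, had at least 0.6 of the CpG pairs that their base make-up predicts. The Foxc1 window had 29 CpG pairs and the Foxd4 window 12. The letters GGCGCC, which SMADs of the BMP branch bind, occurred once in the Foxc1 window and in no other of the 5, and they are present in 9.59% of all windows. The letters CAGAC on either strand, the SMAD box, occurred once in the Foxd1 window, 24 bases before the start, and are present in 42.2% of all windows. None of the 5 windows held the GLI motif GACCACCC or the forkhead motif TAAACA on either strand, which are present in 0.703% and 12% of all windows.

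Foxf1, a Hedgehog target in the mesenchyme of foregut and face, was higher in every mutant than in any control. On mutant arrays it read 10.69 to 11.03, with a median of 10.85, and on control arrays 9.92 to 10.38, with a median of 10.28. All 6 mutants lay above all controls, and control 2 was the lowest. The change was 0.62 ± 0.08 (SE), or 1.53-fold (adjusted p = 0.00058), and a less bright Foxf1 probe set gave 0.66 (adjusted p = 0.0155 across probe sets). Foxf1 passed under all 25 alternatives tried, with changes of 0.55 to 0.65.

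Its paralog Foxf2, which acts in palate and tongue mesenchyme, did not pass. Foxf2 read 10.39 to 10.76 in mutants and 10.16 to 10.62 in controls, with medians of 10.58 and 10.40. The groups overlapped, with 2 of 6 mutants above every control (0.22 ± 0.09 SE, adjusted p = 0.138). The test of the difference itself, on the Foxf1 minus Foxf2 signal of each array, gave 0.40 ± 0.11 (SE, n = 6 in each group; exact permutation p = 0.00649, adjusted p = 0.0294 over 17 pairs of paralogs).

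Both FOXC genes, which pattern head and trunk mesenchyme, the eye and vessels, rose. Foxc2 read 8.62 to 9.05 in mutants, with a median of 8.72, and 8.03 to 8.54 in controls, with a median of 8.36. The groups did not overlap (0.47 ± 0.10 SE, 1.38-fold, adjusted p = 0.00733). Foxc1 read 6.89 to 7.54 in mutants, with a median of 7.40, and 6.57 to 7.22 in controls, with a median of 6.69. Control 6, the highest control, lay above mutants 4 and 5, and 4 of 6 mutants were above every control. Foxc1 changed by 0.52 ± 0.12 (SE, 1.44-fold, adjusted p = 0.0151) and its other probe set by 0.60 (adjusted p = 0.0600 across probe sets). The Foxc1 change minus the Foxc2 change was 0.05 ± 0.19 (SE, exact permutation p = 0.781), which does not show that they changed alike. Foxc1 lost its call without mutants 1 and 2 (0.47, adjusted p = 0.0934), and Foxc2 without control 3, mutant 4 and mutant 6 (0.42, adjusted p = 0.0526).

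The FOXD genes differed in their changes. Foxd1, best known from kidney stroma and expressed in facial mesenchyme, read 11.53 to 11.85 in mutants, with a median of 11.64, and 11.15 to 11.67 in controls, with a median of 11.32. Control 1 was the highest control and lay among the mutants (0.30 ± 0.08 SE, 1.23-fold, adjusted p = 0.0309). The Foxd1 call was the least secure of the rises and was lost in 11 of 25 alternatives, 6 of them with a single array left out (mutant 1, 2 or 4, or control 2, 3 or 4). Foxd1 differed by 0.25 without mutants 1 and 2 (adjusted p = 0.163), by 0.26 without control 3, mutant 4 and mutant 6 (adjusted p = 0.157) and by 0.31 without control 6 and mutant 6 (adjusted p = 0.0603). Foxd2, a mesenchymal relative, read 9.69 to 10.04 in mutants, with a median of 9.84, and 9.45 to 9.79 in controls, with a median of 9.49. Control 1 stood apart from the other controls here too, and 4 of 6 mutants lay above it (0.32 ± 0.07 SE, 1.25-fold, adjusted p = 0.0118). A dim Foxd2 probe set, at 6.00 on average, gave 0.11 (adjusted p = 0.619 across probe sets). Foxd2 lost its call at a change of 0.29 both without mutants 1 and 2 (adjusted p = 0.0753) and on leaving out control 3, mutant 4 and mutant 6 (adjusted p = 0.0808).

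Foxd4, known in the early neural ectoderm of frogs through its relative there, had the largest change of the family and the widest spread. It read 4.85 to 6.87 in mutants, with a median of 6.16, and 4.34 to 4.92 in controls, with a median of 4.61. Mutants 1, 2 and 6 were high, at 6.73, 6.87 and 6.51, mutant 4 was at 5.80, and mutants 3 and 5, at 5.06 and 4.85, were next to or within the controls. The standard deviation was 0.87 among mutants and 0.23 among controls. The change was 1.34 ± 0.32 (SE), 2.53-fold (adjusted p = 0.0150). The call ended in a test with unequal variances (adjusted p = 0.0916), without control 3, mutant 4 and mutant 6 (1.29, adjusted p = 0.0952) and without mutants 1 and 2 (0.92, adjusted p = 0.0745). The probe set was dim, and RMA understates changes of dim probe sets. The neuron marker list was also higher on mutant arrays, by 0.36 on mutant 6 to 1.02 on mutant 2 relative to the control mean, and its part in the Foxd4 values was not tested.

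Foxd3, a factor of neural crest and of Schwann cell precursors, had a change below 0 that did not pass (−0.16 ± 0.05 SE, adjusted p = 0.0674). It read 7.30 to 7.58 in mutants and 7.50 to 7.70 in controls, and 5 of 6 mutants lay below every control. Foxd3 passed, lower in the mutant, with arrays centred on their medians (adjusted p = 0.0478), without dim probe sets (0.0410), with array weights (0.0370) and without mutant 6 (0.0302). Its change differed from that of Foxd1 by 0.46 ± 0.12 (Foxd1 minus Foxd3; exact permutation p = 0.00866, adjusted p = 0.0294) and from that of Foxd2 by 0.48 ± 0.10 (Foxd2 minus Foxd3; exact permutation p = 0.00433, adjusted p = 0.0294). Of 8 measured markers of Schwann cells and neural crest, 3 rose and 1 fell, with Fabp7 at 1.00 and Erbb3 at −0.51. The call of Mbp, 1 of the 3 rises, was lost in 12 of 25 alternatives. Over all genes 6.3% rose and 4.8% fell.

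**Figure D2:**
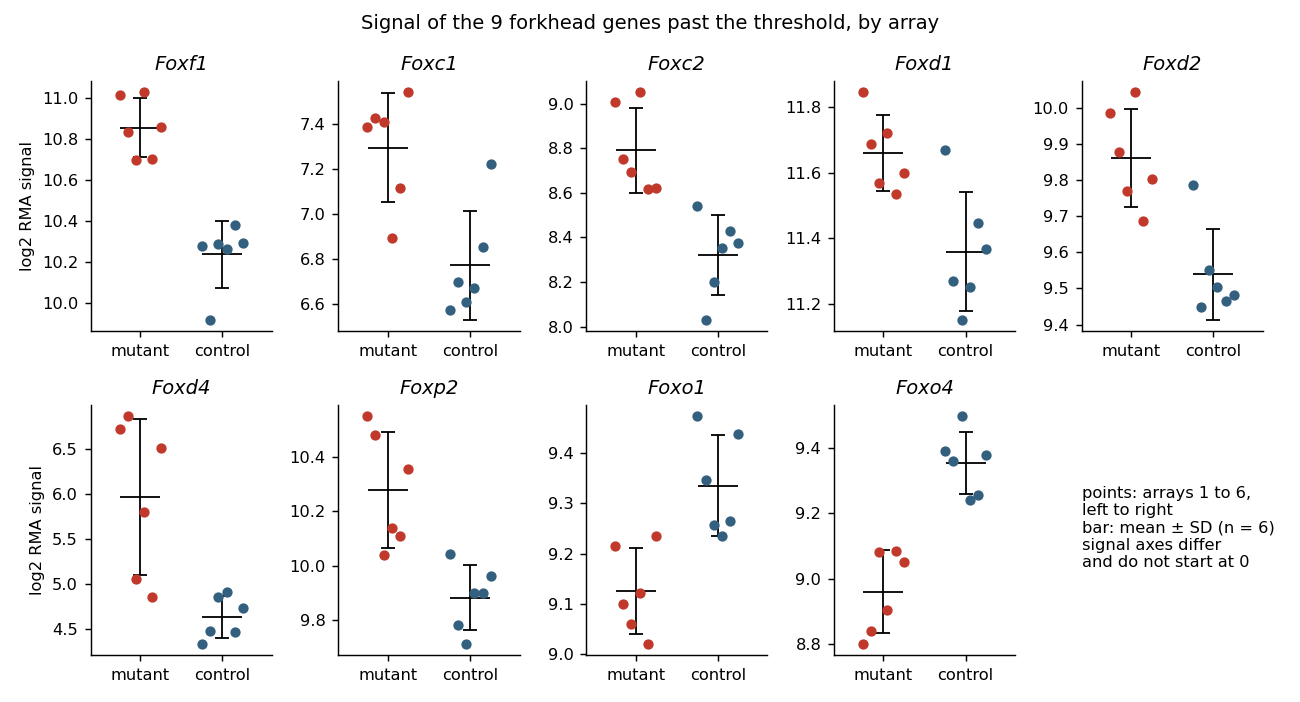
Log2 RMA signal of the 9 forkhead genes that passed, on each array (points 1 to 6 from left to right), mutants in red left of controls in blue, with mean ± SD (n = 6). Foxf1 and Foxc2 in mutants lay above every control and Foxo4 below every control, while Foxd4 ranged from 4.85 to 6.87 among mutants.

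The FOXP genes differed in their changes. Foxp2, a repressor needed in brain and lung, rose by 0.40 ± 0.09 (SE, 1.32-fold, adjusted p = 0.0131). It read 10.04 to 10.55 in mutants, with a median of 10.25, and 9.71 to 10.04 in controls, with a median of 9.90. Mutants 1, 2 and 6 were the highest and 5 of 6 mutants lay above every control. The next 3 Foxp2 probe sets by brightness differed by 0.38, 0.39 and 0.37, while the dimmest pair, at 5.48 and 3.17 on average, differed by 0.06 each. Foxp2 missed the threshold in a test with unequal variances (adjusted p = 0.0520), on leaving out mutants 1 and 2 (0.28, adjusted p = 0.0664) and without control 3, mutant 4 and mutant 6 (0.38, adjusted p = 0.0769).

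Foxp1, which forms dimers with Foxp2 protein, did not pass (−0.16 ± 0.09 SE, adjusted p = 0.310). It read 11.21 to 11.75 in mutants, with a median of 11.25, and 11.31 to 11.63 in controls, with a median of 11.51. Mutant 6 stood alone above every control and 4 of 6 mutants lay below every control. Without mutant 6 Foxp1 was lower in the mutant by −0.24 (adjusted p = 0.0257), so this single array decided the call of the brightest probe set. The next Foxp1 probe sets by brightness differed by −0.05, −0.14, −0.10, −0.12 and 0.05, and the dimmest pair by −0.17 and 0.12. None of these passed (adjusted p = 0.440 to 0.789 across probe sets). The Foxp1 minus Foxp2 signal of an array was lower in every mutant than in any control (−0.56 ± 0.13 SE, exact permutation p = 0.00216, the smallest possible, adjusted p = 0.0294). Foxp4 read 7.47 to 7.79 in mutants and 7.34 to 7.84 in controls and did not pass (0.12 ± 0.08 SE, adjusted p = 0.392). Foxp2 changed more than Foxp4 by 0.28 ± 0.10 (exact permutation p = 0.0173, adjusted p = 0.0421), a difference that passed in only 5 of 17 alternatives. Foxp3, the factor of regulatory T cells, was dim in both groups (4.52 ± 0.15 in mutants and 4.59 ± 0.19 in controls, SD, n = 6 each).

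The fall among FOXO genes was clearest for Foxo4. Foxo4 read 8.80 to 9.08 in mutants, with a median of 8.98, and 9.24 to 9.50 in controls, with a median of 9.37. All 6 mutants lay below all controls, with mutants 1 and 2 the lowest. Foxo4 fell by 0.39 ± 0.06 (SE), or 1.31-fold (adjusted p = 0.00181), and passed under all 25 alternatives, at −0.25 to −0.42. A less bright Foxo4 probe set, at 6.52 on average, gave −0.10 (adjusted p = 0.483 across probe sets).

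Foxo1, the FOXO factor most studied in muscle, fell by 0.21 ± 0.06 (SE), 1.16-fold (adjusted p = 0.0290). It read 9.02 to 9.24 in mutants, with a median of 9.11, and 9.23 to 9.47 in controls, with a median of 9.31. The groups met at mutant 6 and control 4, and 5 of 6 mutants were below every control. The brightest Foxo1 probe set has an identifier of the kind that may bind several transcripts. The next by brightness differed by −0.19 and −0.11 (adjusted p = 0.109 and 0.365 across probe sets). The call was lost in 11 of 25 alternatives, among them the mean of all Foxo1 probe sets (−0.13, adjusted p = 0.0814) and the single omission of mutant 2, 3, 4 or 5 or of control 1, 2 or 6. Foxo1 differed by −0.23 on leaving out mutants 1 and 2 (adjusted p = 0.0767) and by −0.25 on leaving out control 3, mutant 4 and mutant 6 (adjusted p = 0.0614). Foxo3 read 10.46 to 10.78 in mutants and 10.41 to 10.77 in controls (0.05 ± 0.07 SE, adjusted p = 0.714), and its change exceeded that of Foxo4 by 0.45 ± 0.12 (exact permutation p = 0.00866, adjusted p = 0.0294).

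**Figure D3:**
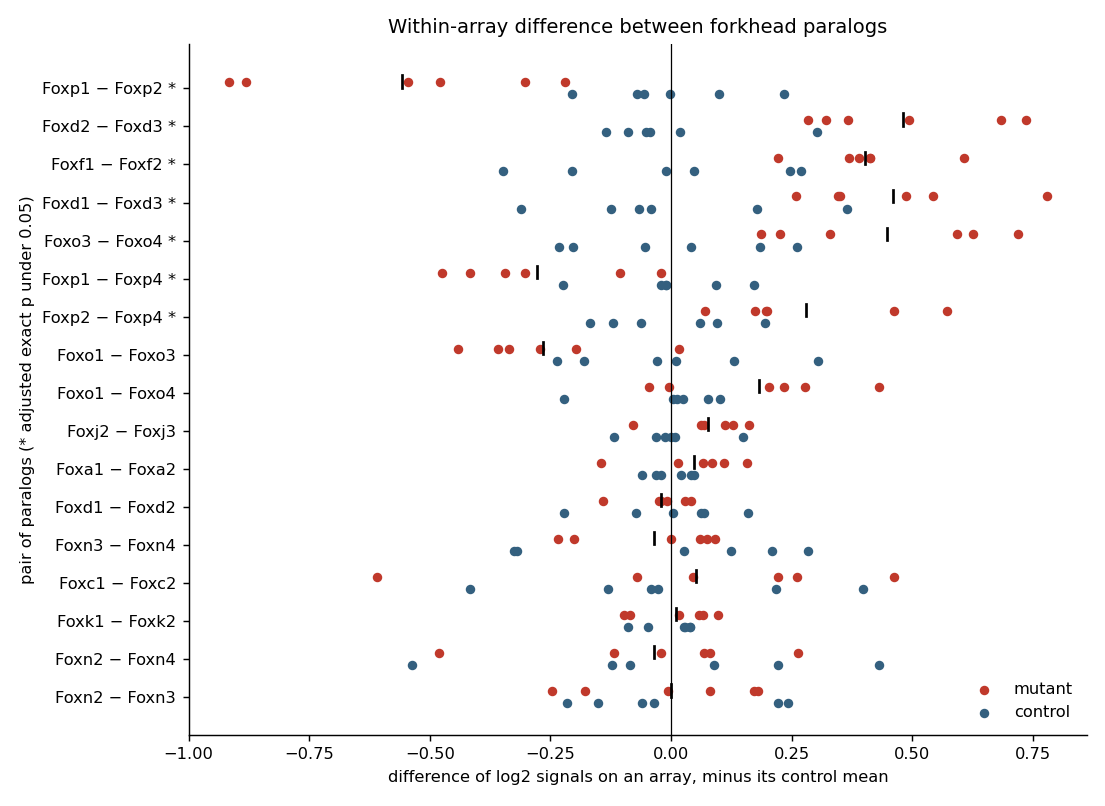
Difference of the log2 signals of paralogs on each array, minus the mean of that difference in controls, for the 17 pairs of 1 subfamily in which neither gene was dim; mutants are red above controls in blue, short bars are mutant means, and stars mark the 7 pairs with an adjusted exact permutation p under 0.05. For Foxp1 minus Foxp2 every mutant lay below every control, at −0.56 on average, and for Foxf1 minus Foxf2 5 of 6 mutants lay above every control, at 0.40.

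In all, 7 of the 17 pairs of paralogs differed in their change, and the other 10 did not pass. Besides those given above, the pair that passed was Foxp1 and Foxp4 (−0.28 ± 0.09 SE, adjusted p = 0.0421), whose difference was −0.09 (adjusted p = 0.475) with the mean of all probe sets. A difference of log2 signals within an array is free of a constant shift between arrays, but not of other scaling. Under quantile normalization 6 of the 7 passed, and Foxp1 minus Foxp4 did not (−0.25, adjusted exact permutation p = 0.0526). Each difference compares 2 probe sets, whose signals are not comparable as amounts of RNA, so it shows only that their readings changed unequally. The 7 differences kept their direction under the 17 alternatives run on them, which reuse most of the same arrays. Foxd2 minus Foxd3 and Foxp1 minus Foxp2 passed in 12 of the 17, and Foxf1 minus Foxf2 and Foxo3 minus Foxo4 in 11. Foxd1 minus Foxd3 passed in 9, Foxp2 minus Foxp4 in 5 and Foxp1 minus Foxp4 in 4. None of the 7 passed without mutant 1, without mutant 2 or without control 2 (adjusted p = 0.0552 to 0.0841), and none passed without control 3, mutant 4 and mutant 6 (0.0771 to 0.101) or without mutants 1 and 2 (0.130 to 0.162). Without control 6 and mutant 6, 5 passed (0.0450 to 0.0675 over the 7). Those that did not were Foxp2 minus Foxp4 and Foxd1 minus Foxd3, the latter at 0.49 (adjusted p = 0.0578). The smallest exact p is 0.00433 for 5 against 6 arrays and 0.00952 for 4 against 6, before adjustment. Foxo1 minus Foxo4 was 0.18 ± 0.09 (exact permutation p = 0.0584), and Foxd1 minus Foxd2 was −0.02 ± 0.06 (exact permutation p = 0.747).

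Members known from epithelium did not pass. Foxa1 and Foxa2, pioneer factors of endodermal epithelium, changed by 0.23 ± 0.09 and 0.18 ± 0.10 (SE; adjusted p = 0.135 and 0.292). Foxa1 read 10.75 to 11.17 in mutants and 10.55 to 10.98 in controls, and 3 of 6 mutants were above every control. Foxq1, a factor of hair and stomach epithelium, read 7.34 to 7.97 in mutants and 7.24 to 7.56 in controls, with 5 of 6 mutants above every control (0.28 ± 0.09 SE, adjusted p = 0.0693). Foxq1 passed with the replicate number as a block (adjusted p = 0.0231) and without mutant 5 (0.35, adjusted p = 0.0120). Of 15 measured oral epithelium markers 6 rose and none fell, where 6.3% of all genes rose. They were led by Cldn4 (0.46), Esrp1 (0.39), Krt15 (0.63) and Grhl3 (0.28). The calls of Esrp1, Krt15 and Grhl3 were lost in 2, 3 and 11 of 25 alternatives. The part of the epithelial share in the Foxa1, Foxa2 and Foxq1 values was not tested.

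Factors of cell division, muscle progenitors and cilia did not pass. Foxm1, which drives mitosis genes, read 7.81 to 8.10 in mutants and 7.75 to 8.16 in controls (0.02 ± 0.07 SE, adjusted p = 0.925), and its 3 bright probe sets differed by 0.00 to 0.02. None of 13 measured mitosis genes that respond to FOXM1 passed. Foxk1, a factor of muscle progenitor cells, read 9.45 to 9.62 in mutants and 9.33 to 9.56 in controls (0.06 ± 0.05 SE, adjusted p = 0.481), and Foxk2 changed by 0.06 ± 0.04. Foxj1, the master regulator of motile cilia, was dim, at 5.20 ± 0.21 in mutants and 5.21 ± 0.22 in controls (SD, n = 6 each). Of 12 motile cilium genes 9 were dim and 2 fell, Tppp3 (−0.72) and Dnaic1 (−0.43), where 4.8% of all genes fell. Dnaic1 was itself dim, and its call was lost in 8 of 24 alternatives. The mean of this mostly dim list was 5.13 to 5.29 in mutants and 5.26 to 5.38 in controls, below every control on 5 of 6 mutants. Foxh1, the DNA-binding partner of SMAD complexes in nodal signalling, read 6.15 to 6.49 in mutants and 6.19 to 6.69 in controls (−0.09 ± 0.09 SE, adjusted p = 0.575). Of 10 measured nodal pathway genes only Acvr2b passed, at −0.23 ± 0.06 (adjusted p = 0.0173), where 11.1% of all genes passed, and its call was lost in 3 of 25 alternatives.

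The other genes that did not pass lay between −0.15 and 0.12. Foxj2 (0.12), Foxj3 (0.04), Foxn2 (−0.05) and Foxn3 (−0.05) were bright in both groups, while Foxe3, a lens factor, Foxl2, an ovary factor, and Foxn4, a retina factor, read close to the median of all probe sets. Dim in both groups were Foxa3, Foxb1, Foxb2, Foxi1, Foxl1, Foxn1 and Foxs1, with means over all arrays of 3.82 for Foxi1 to 5.75 for Foxl1. Over all 37 genes, passing or not, 14 had an unadjusted p under 0.05, where 24.8% of all genes did. Foxl2os, the antisense RNA, was dim and lower in every mutant than in any control (4.46 ± 0.10 in mutants and 4.75 ± 0.13 in controls, SD, n = 6 each; −0.30 ± 0.07 SE, adjusted p = 0.0115), while Foxl2 itself differed by −0.11 ± 0.07 (adjusted p = 0.396). Foxl2os lost its call without control 3, mutant 4 and mutant 6 (−0.24, adjusted p = 0.105). Among the 37 forkhead genes the groups did not overlap for 3 (Foxf1, Foxc2 and Foxo4), where 6.3% of all genes showed no overlap, 3.4% above every control and 2.9% below.

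Several of the changed genes lie in clusters of forkhead genes. Foxf1, Foxc2 and Foxl1 lie in this order on chromosome 8, and the noncoding gene Fendrr, which starts beside Foxf1 and is named after its value was seen, rose by 0.35 ± 0.08 (SE, 7.11 ± 0.17 in mutants and 6.76 ± 0.11 in controls, SD, n = 6 each; adjusted p = 0.0106). Fendrr, Foxf1 and Foxc2 thus all rose, while the dim Foxl1 differed by −0.06 ± 0.08. Any other genes lying between them were not examined. Foxq1, Foxf2 and Foxc1 form the matching cluster on chromosome 13, with changes of 0.28, 0.22 and 0.52, of which Foxc1 alone passed. Foxd2 and the lens gene Foxe3 lie close together on chromosome 4, at 0.32 and −0.05.

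Hedgehog genes, known inducers of several of these factors, were higher in the same tongues. Of 13 measured, 7 rose and none fell, where 6.3% of all genes rose, and the median change was 0.17, against 0.01 for all genes. The ligand Shh rose by 0.56 ± 0.12 (SE), the receptor Ptch1 by 0.41 ± 0.08, the effector Gli1 by 0.39 ± 0.08 and the inhibitor Hhip by 0.79 ± 0.13, the last 3 being direct targets of the pathway. The calls of Shh, Ptch1 and Gli1 were lost in 2, 1 and 1 of 25 alternatives, and that of Hhip in none. Over these alternatives the lowest change was 0.30 for Shh and 0.20 for Ptch1. The list mean was above every control on all 6 mutant arrays, 9.82 to 10.02 in mutants and 9.65 to 9.76 in controls. Mutants 1, 4 and 2 had the highest list means (0.30, 0.27 and 0.25 above the control mean) and mutants 3 and 5 the lowest (0.10 and 0.13). Foxf1 was highest on mutants 1 and 4 and lowest on mutants 3 and 5. The cranial mesenchyme list and the first principal component were highest on mutant 1 and lowest on mutant 5. The Hedgehog list and Foxf1 were lowest on mutant 3. The part of Hedgehog genes in the Foxf1 values was not tested.

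Genes around the FOXO factors changed in both directions. Of 16 FOXO-responsive genes 3 rose and 2 fell, where 6.3% of all genes rose and 4.8% fell. Trim63, a ubiquitin ligase of striated muscle, fell by 1.12 ± 0.13 (SE) and Cited2, a transcriptional cofactor, by 0.23 ± 0.07, while Sesn3, a stress-response protein, rose by 0.50 ± 0.07 and Bcl2l11, a cell death protein, by 0.28 ± 0.08. The calls of Cited2 and Bcl2l11 were lost in 14 and 11 of 25 alternatives, and those of Trim63 and Sesn3 in none. Of 11 measured PI3K, AKT and insulin receptor genes that act on FOXO proteins, the receptor Igf1r fell by 0.20 ± 0.04 and the adaptor Irs1 by 0.25 ± 0.06, and the others did not pass. The call of Irs1 was lost in 5 of 25 alternatives and that of Igf1r in 2. Irs1 read 12.76 ± 0.13 in mutants and 13.01 ± 0.09 in controls (SD, n = 6 each).

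**Figure D4:**
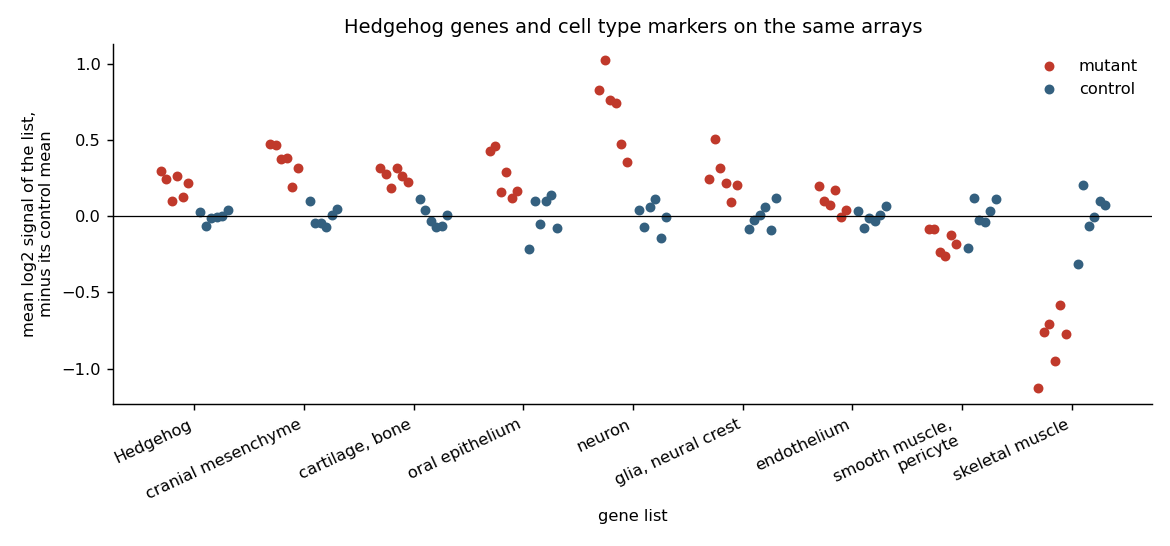
Mean log2 signal of each gene list on each array minus its control mean, mutants in red left of controls in blue. Hedgehog, cranial mesenchyme, cartilage and bone, and neuron lists were above every control on 6 of 6 mutants and the skeletal muscle list was below every control on 6 of 6.

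Markers of the tissues that hold these factors shifted on the same arrays, where 6.3% of all genes rose and 4.8% fell. Of 15 measured cranial mesenchyme markers 12 rose and none fell (Prrx1 0.61, Dlx5 0.68, Dlx1 0.46 and Pdgfra 0.41), with a median of 0.41, a list mean of 8.40 to 8.68 in mutants and 8.13 to 8.30 in controls, and 3 dim members. The changes of Foxf1 (0.62), Foxc1 (0.52), Foxc2 (0.47), Foxd1 (0.30) and Foxd2 (0.32) thus lay on either side of that median. Of 13 cartilage and bone markers 6 rose and 1 fell (Col9a2 0.69, Col9a3 0.64, Sox9 0.44 and Col11a1 0.44), with a list mean of 7.12 to 7.24 in mutants and 6.86 to 7.04 in controls. Of these cartilage and bone markers 4 were dim. Of 12 neuron markers 10 rose and none fell (Snap25 1.51, Stmn2 0.99, Tubb3 0.89 and Elavl4 0.60), with 8.55 to 9.22 in mutants and 8.06 to 8.31 in controls. Snap25 was the 1 dim neuron marker, and its change ran from 0.86 to 1.68 over 24 alternatives. Of 16 skeletal muscle markers 14 fell and none rose (Myf5 −1.81, Myh8 −1.39, Pax7 −1.35 and Tnni1 −0.59), with 10.54 to 11.08 in mutants and 11.35 to 11.87 in controls, and none of them was dim.

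Markers of vessels, smooth muscle and blood cells were also measured. Of 14 endothelial markers 2 rose (Erg 0.47 and Sox18 0.24), where 6.3% of all genes did, and the call of Sox18 was lost in 3 of 25 alternatives. The endothelial list mean was 8.55 to 8.75 in mutants and 8.48 to 8.62 in controls. Of 10 smooth muscle and pericyte markers 4 fell, where 4.8% of all genes did (Tagln −0.92, Acta2 −0.45, Abcc9 −0.35 and Notch3 −0.25), and the calls of Abcc9 and Notch3 were lost in 20 and 14 of 25 alternatives. The smooth muscle and pericyte list mean was 9.07 to 9.25 in mutants and 9.13 to 9.46 in controls. It was below every control on 2 of 6 mutants. Of 14 macrophage markers Csf1r alone rose (0.21), where 6.3% of all genes did, and its call was lost in 15 of 25 alternatives. The macrophage list mean was above every control on 5 of 6 mutants (8.25 to 8.45 in mutants and 8.19 to 8.29 in controls). None of 9 red cell markers passed. The part of these tissue shares in the forkhead changes was not tested.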

How the data were processed

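The deposited table held log2 values, 1 per probe set and array. The submitters' processing notes name RMA as the method of the authors. Its version and the log base were not found in these sources; base 2 was taken from the range of 2.57 to 15.09. Array medians ran from 6.10 to 6.18. No further scaling was applied, and RMA hides a shift shared by most genes. Arrays carry no counting depth, and their number limits precision.

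Of 45101 probe sets, 64 controls were left out; 34945 had 1 gene symbol in the platform annotation, 932 several and 9160 none, and 34741 symbols were checked through gene identifiers against RefSeq (GRCm38.p6). The probe set with the highest mean over 12 arrays stood for each of 18193 genes. The tool for mutant against control was limma 3.58.1 (R 4.3.3; a fit with genotype only, moderated by eBayes, 2-sided, Benjamini-Hochberg over all genes, threshold 0.05). The procedure was tested on simulated data. Pairs of paralogs, added after values were seen, were compared by exact 2-sided permutation of array differences. Members, gene lists and tests were chosen with earlier results of these data known. All forkhead members could be named, and up to 4 passing genes of each list by smallest p. Array correlations of 0.991 to 0.997 showed no duplicates. Replicate numbers were not taken to pair arrays. Alternatives are in the closing section.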

Additional observations from a re-analysis of the deposited data

Results flagged for a closer look

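In groups of 6, a sample counted as apart when its gap to the nearest other sample was large against the group's range (Dixon's criterion), which chance gives in about 1 in 20 groups. Of 76 groups (38 genes in mutants and controls), 6 held such a sample. Among mutants, mutant 6 was high for Foxp1 (11.75, next 11.35) and for Foxl2 (6.53, next 6.24). Among controls, control 1 was high for Foxd2 (9.79, next 9.55) and for Foxp4 (7.84, next 7.50), control 2 was low for Foxf1 (9.92, next 10.26), and control 6 was low for Foxl1 (5.42, next 5.76). Mutant 6 and control 6 also had the lowest 18S signal, and the part of RNA quality in these values was not tested.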

How the results depend on the processing

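Over 25 alternatives the 9 passing forkhead genes kept their call in 192 of 224 values. Their direction was kept in all 224, but this was largely fixed in advance. Some alternatives, such as the unequal-variance test and adjustment over all probe sets, alter only the p-value, and the others reuse most of the same arrays. The count of all passing genes, 2020, was 836 without control 3, mutant 4 and mutant 6 and 875 without mutants 1 and 2, and 1398 to 2103 with single arrays left out. The count of 7 forkhead genes higher was 4 in the unequal-variance test, 2 without control 3, mutant 4 and mutant 6, 2 without mutants 1 and 2, and 6 to 8 with single arrays left out. The count of 2 lower was 1 with the mean of all probe sets, 1 with adjustment over all probe sets, 1 without control 3, mutant 4 and mutant 6, 1 without mutants 1 and 2, 4 without control 6 and mutant 6 (Foxl2 and Foxp1 joined), and 1 to 4 with single arrays left out. Alternatives with fewer arrays test fewer samples; the other causes were not tested. With the replicate number as a block 8 forkhead genes were higher (Foxq1 joined) and 2 lower, with 1932 genes in all; same-numbered arrays correlated at −0.06 to 0.24, and 4 of 6 mutants correlated best with the control of their number. Dim probe sets limit what Foxd4, Foxj1 and other members under 6.13 can show.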
